A study of Mus musculus with 15 samples.

Results

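The expression of 10 genes that mark megakaryocytes and platelets was followed across leukemic mouse bone marrow: Itga2b, Itgb3, Pf4, Ppbp, Gp1ba, Gp1bb, Gp9, Gp6, Vwf and Treml1. Each gene was taken by its symbol, and all 10 were present in each of the 4 deposited tables, among 20723 genes listed in any table. RNA sequencing had been carried out on 15 libraries in 5 groups of 3. The groups were 36N cells treated with temozolomide (TMZ, an alkylating drug) at 50 µg/ml for the 20 h before RNA isolation, 36S cells treated in the same way, untreated KD cells, untreated 36N cells and untreated 36S cells. Donors of the 36S leukemias carried human GFI1, a gene for a repressor of transcription that acts in blood cell development, at the mouse Gfi1 locus. In donors of the 36N leukemias the human gene was its 36N variant, and KD donors expressed 10-20% of human GFI1. All groups shared the retroviral MLL-AF9 oncogene with a GFP reporter, introduced into lineage-depleted donor cells. Recipients were C57BL/6 mice, irradiated with 7 and 3 Gy for the first transplantation and with 3 Gy for the later ones. Total bone marrow of leukemic quaternary recipients was used, so the libraries may also hold recipient cells. Ages are not given, nor is it stated whether the untreated cells were also kept in culture, so TMZ and any culture of the cells cannot be told apart. Titles carry a further number of unstated meaning, which is 1 throughout 36N and KD and runs over 1, 2 and 3 in 36S. The column headers of the table of TMZ-treated cells carry yet another number, which differs between all 6 libraries and whose meaning is not given either. It is not stated how many animals or separate leukemias the 3 libraries of a group came from, and p-values therefore measure the spread between these libraries.

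Megakaryocytes are the large marrow cells that shed platelets, and they share a progenitor with red blood cells. Platelets adhere to a vessel wall through von Willebrand factor and collagen, release chemokines and clotting proteins from alpha granules, and bind to each other through the fibrinogen receptor. Itga2b and Itgb3 encode the chains of that fibrinogen receptor. Gp1ba, Gp1bb and Gp9 encode subunits of the receptor for von Willebrand factor, Gp6 encodes the collagen receptor, and Vwf encodes von Willebrand factor itself. Pf4 and Ppbp are alpha granule chemokines, and Treml1 is an alpha granule membrane receptor. Several of these genes are not restricted to platelets: Itga2b is also carried by early blood progenitors and by cultured mouse mast cells, Itgb3 by macrophages, and Vwf by endothelial cells.

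In the mm10 annotation Itga2b, Itgb3 and Gp1ba lie on chromosome 11 at chr11:102453297-102470122, chr11:104608000-104670476 and chr11:70639122-70642036. Ppbp (chr5:90768518-90770063) and Pf4 (chr5:90772435-90773383) are neighbours on chromosome 5 with 2371 bases between them. Gp9 (chr6:87778072-87779768) and Vwf (chr6:125546774-125686679) lie on chromosome 6. Gp6 lies at chr7:4363965-4397744, Gp1bb at chr16:18620317-18622403 and Treml1 at chr17:48359916-48367176. Gp1bb overlaps Sept5 and Gm49601 on the same strand, so reads of these genes may be shared and the Gp1bb values are uncertain.

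The deposited values are normalized counts per gene with column totals (in units of 1e6) of 11.27 to 13.03 in the untreated tables, 15.69 to 18.29 where TMZ-treated and untreated 36N cells share a table, and 22.25 to 24.26 in the table of TMZ-treated cells. How many reads stand behind a value is not known. The same 36N library carried different values in different tables, by a factor that depended on the gene (1.30 to 1.95 for untreated libraries and 0.54 to 0.95 for TMZ libraries). Levels are therefore compared within a table, and not between genes. Mouse Gfi1 stood at 594 ± 115 in TMZ-treated and 479 ± 102 in untreated 36N libraries (SD, n = 3 each). Since the locus holds human GFI1, this level was not used to check the genotype labels.

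The question of the first comparison is how TMZ-treated 36N cells differ from untreated 36N cells. In 36N cells with TMZ, 9 of the 10 genes rose, and Gp6 did not pass the test. All 9 were higher in each TMZ library than in each untreated library. The log2 fold changes of the 9 genes ran from 2.32 for Vwf to 10.92 for Itga2b. In bulk marrow, more cells of a type and more RNA per cell cannot be told apart.

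Both chains of the fibrinogen receptor rose, and Itga2b had the largest change of the 10 genes. Itga2b had 25483, 35360 and 48084 normalized counts in the 3 TMZ-treated 36N libraries, against 14.8, 8.63 and 37.7 in the untreated ones. Every TMZ library exceeded every untreated library by far, and the highest untreated value came from library 6, which was also highest with TMZ. The log2 fold change was 10.92 (SE 0.48; 95% interval 9.8 to 12.05; limma adjusted p = 2.3e-06), the 25th largest of 14390 genes tested. Itgb3 had 6396, 4548 and 6367 with TMZ, against 198, 357 and 248 untreated. These groups did not overlap either, although Itgb3 was already present in all untreated libraries. Its log2 fold change was 4.45 (SE 0.24; limma adjusted p = 4.7e-06).

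The receptor for von Willebrand factor is built from the products of Gp1ba, Gp1bb, Gp9 and Gp5, and all 4 genes rose. Gp1ba, the chain that binds von Willebrand factor, had 286, 457 and 588 with TMZ, against 16.7, 8.25 and 25 untreated, a log2 fold change of 4.72 (SE 0.45; limma adjusted p = 6.3e-05). Gp1bb, its disulfide-linked partner, had 113, 72 and 62.7 with TMZ and was listed at 0, 2.42 and 0 without it. The fitted log2 fold change of Gp1bb was 5.75 (limma adjusted p = 7.6e-05) and depended on the pseudocount, since values near 0 were involved, with a range of 3.9 to 6.48 over the alternatives. Gp9, which stabilises the complex, had 101, 84.4 and 60.3 with TMZ, against 12.8, 18.2 and 8.81 untreated, a log2 fold change of 2.56 (SE 0.37; limma adjusted p = 0.00056). The subunits ranked the libraries differently: Gp1ba was highest in TMZ library 6, and Gp1bb and Gp9 were highest in TMZ library 4. Gp5, from the list of other receptors, averaged 942 ± 347 with TMZ and 4.4 ± 7.62 untreated (SD, n = 3 each).

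The ligand Vwf had 1323, 703 and 1257 with TMZ, against 156, 183 and 329 untreated. Its groups did not overlap, and the log2 fold change of 2.32 (SE 0.34; limma adjusted p = 0.0006) was the smallest of the 9. The collagen receptor Gp6 had 43.9, 24.2 and 23.4 with TMZ, against 32.4, 35.9 and 49.2 untreated. These ranges overlapped, with the lowest 2 values both in TMZ libraries. The log2 fold change of Gp6 was -0.39 with a 95% interval of -1.24 to 0.46 (limma adjusted p = 0.37). The upper bound of that interval lay below the lower bound of each of the other 9 genes, the nearest being 1.52 for Vwf, although the differences between genes were not tested. Fcer1g, the signalling chain that pairs with Gp6 on platelets, averaged 4166 ± 2271 with TMZ and 7078 ± 501 untreated (SD, n = 3 each). The Fcer1g groups overlapped, and its call (log2 fold change -0.89, limma adjusted p = 0.038) was lost without the variance trend and whenever any of 5 of the 6 libraries was left out.

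The alpha granule genes rose strongly from low levels. Pf4, which binds heparin, had 2564, 1488 and 6304 with TMZ, against 5.85, 0.961 and 13.1 untreated. Library 6 was the highest and library 5 the lowest in both states, but the untreated values were low and no pairing by number was assumed. The groups did not overlap. The log2 fold change was 8.97 (SE 0.78; limma adjusted p = 4e-05). Its neighbour Ppbp, the precursor of a neutrophil-attracting chemokine, had 637, 348 and 2206 with TMZ, against 0, 5.33 and 5.55 untreated. The TMZ libraries stood in the same order as for Pf4, and the log2 fold change was 7.83 (SE 0.90; limma adjusted p = 0.00017). Treml1 had 126, 57.9 and 67.1 with TMZ, against 3.47, 2.68 and 2.42 untreated, a log2 fold change of 4.38 (SE 0.40; limma adjusted p = 5.1e-05).

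**Figure D1:**
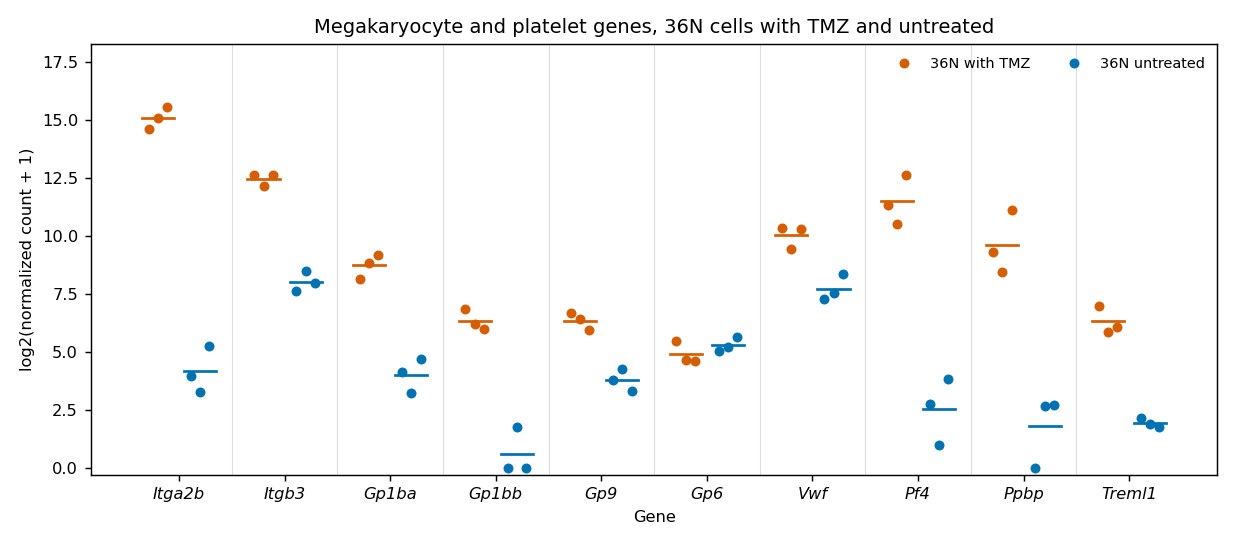
Log2(normalized count + 1) of each gene (x axis) in the 3 libraries of 36N cells with TMZ (left, orange) and the 3 untreated 36N libraries (right, blue); each point is a library and each bar the mean. The groups are apart for 9 genes, widest for Itga2b, and overlap for Gp6.

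The counts have to be read against a transcriptome in which most genes moved. Over all 14390 genes tested, 36.3% were called higher and 33.5% lower, so 9 of 10 genes called higher stands beside a background of 36.3%. TMZ libraries lay above untreated ones without overlap for 38.7% of the genes tested. The median log2 fold change was 4.58 over the 10 genes and 0.06 over all genes tested, of which 5% exceeded 4.11. Of the 10 genes, 7 passed the filter on low values (at least 10 in at least 3 libraries) only because of their TMZ libraries. Only Itgb3, Gp6 and Vwf reached 10 in all 3 untreated libraries. Each of the 9 calls held under all 13 alternatives run for it.

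**Figure D2:**
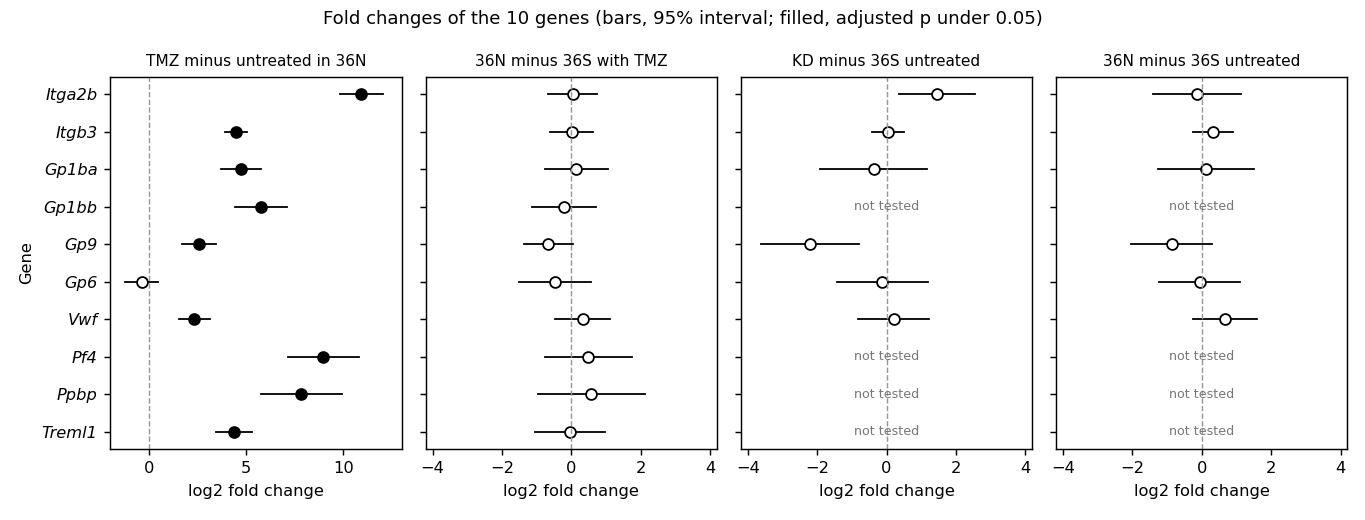
Log2 fold changes (points) with 95% intervals (bars) of the 10 genes (y axis) in 4 comparisons; filled points have a limma adjusted p under 0.05, and genes below the filter are marked as not tested. Filled points appear for TMZ against untreated 36N cells and in none of the other panels, and the x axis of that panel is wider.

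As 9 of the 10 genes rose, the 250 bases upstream of the RefSeq start of 4 of the 10 are shown: Itga2b with the largest change, Pf4 for the granule chemokines, Gp1ba for the von Willebrand factor receptor, and Gp6 as the gene whose change did not pass. The sequences are from RefSeq (GRCm38.p6), written 5′ to 3′ on the strand of the gene. Capitals mark GATAA, a core recognised by GATA factors, and GGAAG, a core recognised by ETS factors, with their reverse complements TTATC and CTTCC. The windows are chr11:102469884-102470133 on the minus strand for Itga2b, chr5:90772185-90772434 on the plus strand for Pf4, chr11:70638872-70639121 on the plus strand for Gp1ba and chr7:4397745-4397994 on the minus strand for Gp6. The window of Itga2b overlaps an exon of a noncoding Itga2b transcript in the annotation.
Itga2b: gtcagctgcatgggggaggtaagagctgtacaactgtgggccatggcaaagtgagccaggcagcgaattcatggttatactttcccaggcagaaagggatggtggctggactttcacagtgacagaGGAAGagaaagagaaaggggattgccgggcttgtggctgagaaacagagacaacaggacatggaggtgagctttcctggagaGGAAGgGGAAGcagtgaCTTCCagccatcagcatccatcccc
Pf4: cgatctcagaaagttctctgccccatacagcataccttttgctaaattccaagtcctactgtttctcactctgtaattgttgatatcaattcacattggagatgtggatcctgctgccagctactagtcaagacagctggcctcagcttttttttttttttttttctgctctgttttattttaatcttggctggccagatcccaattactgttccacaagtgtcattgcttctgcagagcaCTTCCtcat
Gp1ba: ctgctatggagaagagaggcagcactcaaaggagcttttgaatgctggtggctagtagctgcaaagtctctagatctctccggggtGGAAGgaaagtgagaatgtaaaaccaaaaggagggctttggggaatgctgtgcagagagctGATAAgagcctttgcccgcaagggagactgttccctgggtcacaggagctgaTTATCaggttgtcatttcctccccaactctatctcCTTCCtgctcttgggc
Gp6: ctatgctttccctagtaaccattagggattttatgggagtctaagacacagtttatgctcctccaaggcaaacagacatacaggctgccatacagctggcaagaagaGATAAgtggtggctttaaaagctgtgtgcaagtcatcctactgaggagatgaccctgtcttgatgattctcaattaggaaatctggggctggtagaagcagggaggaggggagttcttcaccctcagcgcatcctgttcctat
The Gp1ba window held 2 GATAA cores and 2 GGAAG cores, and the Itga2b window held 4 GGAAG cores and no GATAA core. The Pf4 window held 1 GGAAG core, and the Gp6 window held 1 GATAA core. Of the 8 genes with a window, 3 held GATAA and 7 held GGAAG on either strand, against 22.6% and 64.1% of 32851 windows of the same length. Itgb3 and Vwf are named only. These matches describe the letters of the windows and are not binding sites.

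The genes around the 10 were described with lists of other genes of the lineage. Of 12 transcription factors of megakaryocytes, 8 rose and 3 fell in 36N cells with TMZ. Gata1, which drives late megakaryocyte and red cell genes, had 724, 979 and 1117 with TMZ, against 1.04, 0 and 48.5 untreated. Tal1, its partner in early blood development, had 1368, 2031 and 2453 with TMZ, against 1.61, 7.48 and 46.6 untreated. Neither gene reached 10 in untreated libraries 4 and 5, so each passed the filter only through its TMZ libraries. In both genes the highest untreated value was that of library 6, which also had the highest summed erythroid markers (2110, against 124 and 124 in untreated libraries 4 and 5). The part of those cells in the untreated values was not tested. Gfi1b, a repressor related to Gfi1 that is needed for megakaryocytes and red cells, averaged 1512 ± 390 with TMZ and 17.3 ± 5.21 untreated, a log2 fold change of 6.37. Gata2, a factor of early progenitors and mast cells, averaged 13969 ± 3541 with TMZ and 340 ± 113 untreated, a log2 fold change of 5.37 (SD, n = 3 each). Limma adjusted p-values of these 4 genes lay between 3.1e-06 and 0.0012. Fli1 and Runx1, which also act in megakaryocytes, fell together with Lyl1: Fli1 had 1047, 991 and 1434 with TMZ, against 4664, 4675 and 4217 untreated.

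Thrombopoietin is the main growth factor of megakaryocytes, and JAK2 and STAT proteins carry its signal. Of 12 genes of this pathway, 5 rose and 4 fell. Socs3 and Socs1, feedback inhibitors of cytokine signalling, had log2 fold changes of 5.30 and 3.41 (limma adjusted p = 0.00083 and 1.8e-05), and Jak2 one of 1.33. Among 21 other platelet receptors, 17 were tested, 15 rose and 1, Fcer1g, fell. Gp5 averaged 4.4 untreated, and Socs3 of the thrombopoietin list 9.3, so each passed the filter only because of its TMZ libraries. Such genes could hardly have been called lower, which limits the counts of rises against falls. F2r, a thrombin receptor, averaged 3149 ± 862 with TMZ and 11.3 ± 4.03 untreated (SD, n = 3 each), a log2 fold change of 8.01 (limma adjusted p = 1.6e-06). Pear1 and Cd226, receptors of the platelet surface, had log2 fold changes of 6.13 and 5.15, and Gp5 one of 8.54.

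Of 17 genes for granule cargo and granule formation, 12 rose and 4 fell. Thbs1, a matrix protein of alpha granules, averaged 18850 ± 12533 with TMZ and 182 ± 46.4 untreated, a log2 fold change of 6.53 (limma adjusted p = 9.7e-06). Mmrn1, an alpha granule protein that binds factor V, had a log2 fold change of 4.51 (limma adjusted p = 0.0022). It averaged 3.88 untreated, so it passed the filter only because of its TMZ libraries and could hardly have been called lower. F13a1, the clot cross-linking enzyme, which monocytes also make, went the other way. It averaged 1906 ± 1546 with TMZ and 38346 ± 1772 untreated (SD, n = 3 each), a log2 fold change of -4.70 (limma adjusted p = 0.00021). F5, Sparc and Lyst also fell.

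Of 19 genes for platelet signalling and eicosanoid synthesis, 10 rose and 5 fell. Tbxas1, which makes thromboxane, had a log2 fold change of 3.34, the adaptor Lcp2 one of 2.14 and the kinase Prkcq one of 1.5. Gng11 had one of -1.28 (limma adjusted p = 0.023), a call that was lost when any of 4 libraries was left out. For the cytoskeleton of proplatelets, 11 of 13 genes were tested, and 5 rose and 5 fell. Tuba8 had a log2 fold change of 4.42 and Tpm1 one of 1.66, while Tpm4 and Mylk had -1.90 and -1.83. With equal column totals 3 cytoskeleton genes, in place of 5, were called higher. Tubb1, the beta tubulin of the platelet marginal band, chosen for mention after its values were seen, was not tested and had 4.56, 0.742 and 0 with TMZ, against 5.39, 1.28 and 1.42 untreated. These counts stand beside the same backgrounds of 36.3% called higher and 33.5% called lower.

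Markers of other cell types moved with the 10 genes. The summed level of 12 mast cell and basophil markers was 100688, 211645 and 294322 in 36N libraries with TMZ, against 1148, 716 and 804 in untreated ones. All 11 of these markers that were tested rose, with a median log2 fold change of 9.56, while 36.3% of all genes tested were called higher. None of these markers is among the 10 platelet genes. Mcpt4, Tpsb2, Tpsab1, Fcer1a and Il4 were at 0 in all untreated 36N libraries. Those of them that were tested passed the filter only through their TMZ libraries, and could not have been called lower. Itga2b and the mast cell sum had the same order of TMZ libraries, lowest in library 4 and highest in library 6. Their part in the result was not tested.

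Of 10 endothelial markers tested, 7 rose and Cdh5 fell, and the endothelial sum was 5977 to 7419 with TMZ and 3669 to 4191 untreated, most of it Pecam1. The markers that rose were Pecam1, Tek, Eng, Tie1, Egfl7, Plvap and Esam. Cdh5, a cadherin of endothelial cells, had 14.8, 0.466 and 1.48 with TMZ, against 14.1, 16.6 and 25.8 untreated. The part of endothelial cells in the Vwf values was not tested. Of 10 erythroid markers tested, 3 rose, with sums of 563 to 1117 with TMZ and 124 to 2110 untreated. T and NK markers had sums of 450 to 797 with TMZ, most of it Nkg7, and 223 to 387 untreated, with 1 of 7 higher and 5 lower. B and plasma cell markers had sums of 246 to 538 with TMZ and 8797 to 15172 untreated, with 6 of 7 lower. Monocyte sums were 21548 to 61537 with TMZ and 104430 to 114304 untreated. Their markers were split, with 3 of 10 higher and 4 lower and a median log2 fold change of -0.13. Neutrophil sums were 5705 to 27846 with TMZ and 15410 to 28689 untreated, with 2 of 10 higher and 2 lower. Stromal sums were 447 to 875 with TMZ and 1310 to 1417 untreated, with 0 of 6 higher and 3 lower. Leukemic myeloid markers had sums of 58564 to 86385 with TMZ and 75885 to 77306 untreated, with 2 of 10 higher and 6 lower. Beside these counts, 36.3% of all genes tested were called higher and 33.5% lower.

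**Figure D3:**
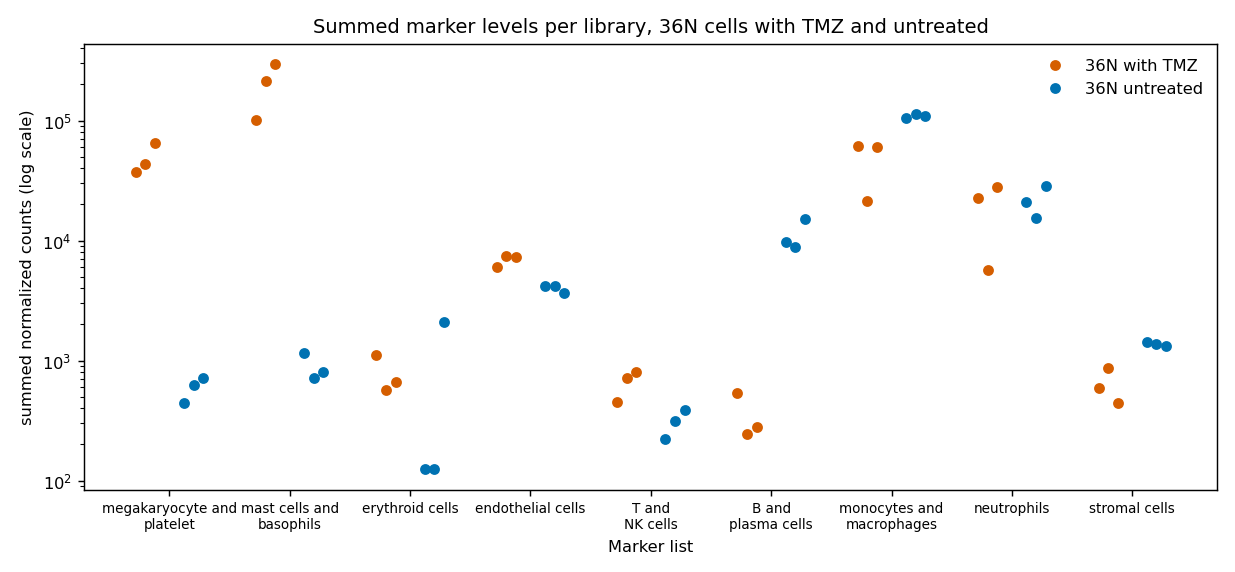
Summed normalized counts (log axis) of each marker list (x axis) in the 3 libraries of 36N cells with TMZ (left, orange) and the 3 untreated 36N libraries (right, blue); each point is a library. The sums of the 10 megakaryocyte and platelet genes and of the mast cell markers are far apart between the groups, and the B and plasma cell sums are apart in the other direction. Itga2b makes up most of the sum of the 10 genes with TMZ.

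The second comparison asks whether TMZ-treated 36N and 36S cells differ. No difference in any of the 10 genes passed the test. None of 14246 genes did (0%, by limma with and without the trend), and 191 genes, none of them among the 10, had an unadjusted p under 0.05. That is fewer than a threshold of 0.05 would be expected to give if no gene differed, and the reason was not tested. Itga2b had 31672, 43552 and 58560 in 36N libraries with TMZ, against 31500, 44439 and 53467 in 36S libraries with TMZ. The ranges nearly coincided, and the log2 fold change was 0.04 with a 95% interval of -0.68 to 0.75. Itgb3 had 10794, 7606 and 10528 in 36N and 12339, 6770 and 10105 in 36S, with an interval of -0.60 to 0.62. Differences within these intervals could not be detected with 3 libraries a group and the spread between them.

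The granule chemokines were more variable. Pf4 had 2743, 1577 and 6607 in 36N with TMZ, against 1567, 1742 and 3743 in 36S with TMZ. Ppbp had 1168, 633 and 3966 in 36N, against 606, 843 and 1745 in 36S. Both were highest in 36N library 6 and in 36S library 3, and the 95% intervals of the log2 fold changes were wide, at -0.75 to 1.74 for Pf4 and -0.97 to 2.12 for Ppbp. Treml1 had 205, 93.6 and 107 in 36N, against 193, 78.4 and 149 in 36S, with overlapping ranges and an interval of -1.06 to 0.97.

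Gp9 was the 1 gene of the 10 whose libraries did not overlap, with 158, 131 and 92.2 in 36N with TMZ, against 177, 168 and 256 in 36S with TMZ. Of all genes tested, 1.86% lay below without overlap in this way. The log2 fold change was -0.66 with a 95% interval of -1.36 to 0.04 (limma adjusted p = 1, and 0.94 at the lowest over the alternatives), so it did not pass. Its partners Gp1ba, with 392, 619 and 788 in 36N and 302, 724 and 644 in 36S, and Gp1bb, with 137, 86.8 and 74.8 in 36N and 106, 75.2 and 176 in 36S, overlapped. Vwf had 2430, 1280 and 2261 in 36N, against 2054, 986 and 1723 in 36S, and Gp6 had 73.6, 40.2 and 38.4 in 36N, against 115, 50.5 and 52.5 in 36S. Neither passed.

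Within each TMZ group the libraries differed in a way that recurred across some of the genes. Itgb3, Gp6, Vwf and Treml1 were highest in 36N library 4 and in 36S library 1. Itga2b and Gp1ba were lowest in both of these libraries, and Gp1bb, Gp9, Pf4 and Ppbp followed neither pattern. The mast cell and basophil sums were 150893, 318028 and 438668 in 36N and 136523, 361106 and 406165 in 36S, and so were lowest in the same 2 libraries, in the order of Itga2b. The leukemic myeloid sums were highest in them, at 125775 in 36N library 4 and 205679 in 36S library 1, against 79086 to 114076 in the other 4 libraries. Mpo was the largest part of these sums, with means of 43620 in 36N and 74855 in 36S. The part of these cells in the differences between libraries was not tested. Pathway lists gave no call in this comparison.

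**Figure D4:**
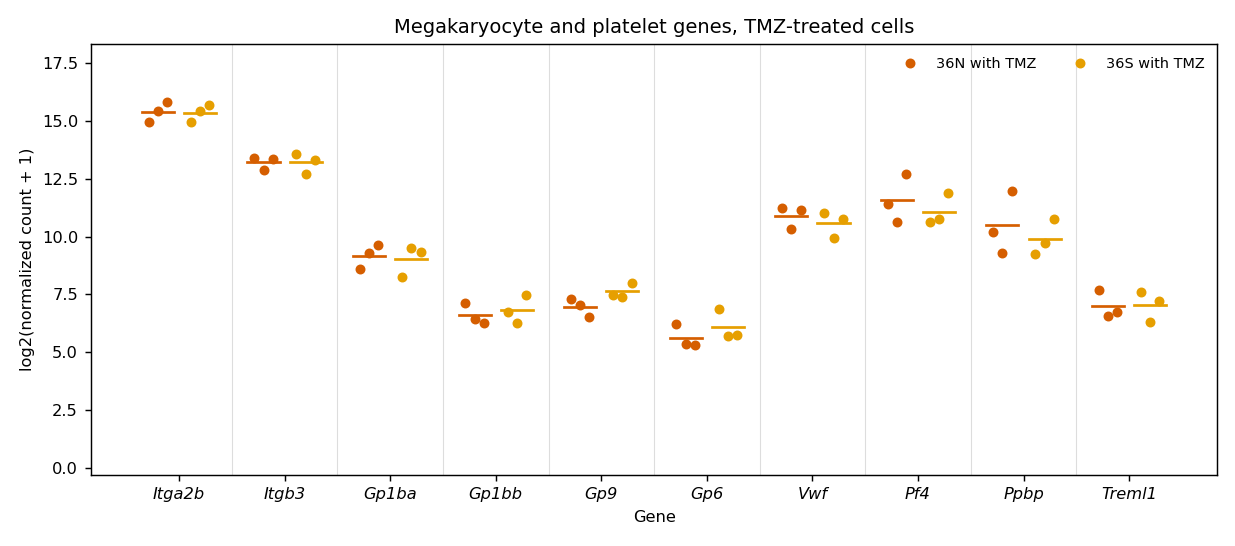
Log2(normalized count + 1) of each gene (x axis) in the 3 libraries of 36N cells with TMZ (left, orange) and the 3 libraries of 36S cells with TMZ (right, yellow); each point is a library and each bar the mean. The groups overlap for all genes except Gp9, for which the difference did not pass the test.

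The third set of comparisons asks how the KD and 36N leukemias differ from 36S leukemias without treatment. No gene of the 10 that was tested passed in any of them, and 4 or 5 of the 10 were too low to be tested. Ppbp, Gp1bb and Treml1 stayed below 10 in all 9 untreated libraries, and Pf4 reached 9.98 at most. Itgb3, at 112 to 217, and Vwf, at 42.8 to 193, were above 10 in every library.

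In KD against 36S libraries, 0 of 6 genes tested passed by limma (2 at an unadjusted p under 0.05), while 11.5% of 13109 genes did. Itga2b had 75.5, 22.4 and 34.4 in KD libraries, against 18.9, 13.1 and 10.1 in 36S libraries. All KD values were higher, and the log2 fold change was 1.45 with a 95% interval of 0.35 to 2.54 (limma adjusted p = 0.091). Without KD library 8, the lowest of the 3, the log2 fold change was 1.83 with an adjusted p of 0.037, and over all alternatives the adjusted p ran from 0.037 to 0.25. Gp9 had 3.25, 4.54 and 1.26 in KD, against 29.6, 12.9 and 11.5 in 36S. No KD library reached 10, so Gp9 passed the filter only through the 36S libraries, where it was higher. All KD values were lower, and the log2 fold change was -2.21 with a 95% interval of -3.63 to -0.79 (limma adjusted p = 0.053). The adjusted p of Gp9 ran from 0.036 to 0.19 over the alternatives. It passed with no filter (0.046), with equal totals (0.048), without the trend (0.036) and without KD library 8 (0.04).

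Pf4, Ppbp and Treml1 were below the filter and are given without a test. Pf4 had 1.77, 1.41 and 1.91 in KD, against 8.87, 8.3 and 2.98 in 36S. Ppbp was listed at 0 in all 3 KD libraries, against 3.22, 5.56 and 1.95 in 36S. Treml1 had 2.65, 7.83 and 4.75 in KD, against 0.867, 1.19 and 0 in 36S. The granule chemokines were thus lower in every KD library and Treml1 higher. In all, 2 of the 10 genes lay above and 3 lay below without overlap, while 13.7% of the genes of the table lay above and 13.3% below. The other genes overlapped: Itgb3 had 130, 127 and 131 in KD, with a 95% interval of -0.42 to 0.50 for the log2 fold change, and Vwf had 125, 123 and 47.9, with an interval of -0.82 to 1.23. Gp1ba and Gp6 had wider intervals of -1.92 to 1.17 and -1.43 to 1.20. Gp1bb was listed at 0, 0 and 6.29 in KD and at 5.38, 1.16 and 0 in 36S.

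KD libraries 7 and 9 had larger column totals than any 36S library, and KD library 8 did not. Bringing libraries to equal totals shifted the median log2 fold change of all genes by -0.12, and the share of calls that were higher was 57.6% as deposited and 39.3% with equal totals. Itga2b and Gp9 had log2 fold changes of 1.33 and -2.31 with equal totals. Monocyte markers had summed levels of 170049 to 227396 in KD and 55622 to 78394 in 36S, with 6 of 10 higher. Mast cell and basophil markers, of which 6 of 12 were in this table, had sums of 1952 to 2227 in KD and 790 to 1237 in 36S. Most of the KD sum was Cpa3, which averaged 1324 in KD and 215 in 36S. Cpa3 was called higher (log2 fold change 2.69) and Ms4a2 lower (-3.20). T and NK markers had sums of 270 to 765 in KD and 77.4 to 216 in 36S, with 4 of 8 higher and a median log2 fold change of 2.23. Leukemic myeloid sums were 46721 to 51939 in KD and 71676 to 142303 in 36S, with 3 of 10 markers higher and 4 lower. Mpo and Elane were the largest parts of these sums in both groups. The part of these cells in the values of the 10 genes was not tested. The marker counts are as deposited only, beside 6.61% of all genes tested called higher and 4.86% called lower.

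In 36N against 36S libraries, 0 of 6 genes tested passed by limma (0 at an unadjusted p under 0.05), while 4.56% of 13137 genes did. Itga2b had 10.6, 6.15 and 26.7 in 36N, against 18.9, 13.1 and 10.1 in 36S, and the 36N range enclosed that of 36S. Vwf had 92.1, 108 and 193 in 36N, against 42.8, 90.9 and 123 in 36S, a log2 fold change of 0.66 with a 95% interval of -0.25 to 1.58 (limma adjusted p = 0.39). Gp9 had 8.56, 12.2 and 5.87 in 36N, overlapping 36S at a single library, with a log2 fold change of -0.87 and an interval of -2.03 to 0.29. Itgb3 had 120, 217 and 150 in 36N, against 158, 112 and 112 in 36S, with an interval of -0.24 to 0.90. Gp1ba and Gp6 overlapped as well, with intervals of -1.25 to 1.5 and -1.22 to 1.10. Treml1, below the filter, was the 1 gene of the 10 that did not overlap, with 2.4, 1.85 and 1.67 in 36N, against 0.867, 1.19 and 0 in 36S, while 11.2% of the genes of the table lay above in this way. Pf4 had 4.46, 0.734 and 9.98 in 36N, and Ppbp had 0, 2.75 and 2.84, both overlapping 36S.

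KD and 36N libraries could be set side by side because the 36S values were identical in both tables. Of 5 genes tested, 0 passed by limma (1, Itga2b, at an unadjusted p under 0.05), while 3.24% of 13118 genes did, of which 62.6% were higher as deposited and 49.6% with equal totals. Itga2b had a log2 fold change of 1.60 with a 95% interval of 0.28 to 2.91 (limma adjusted p = 0.19), and its ranges overlapped through 36N library 6. Gp9, below the filter here, lay lower in every KD library than in every 36N library, and Treml1 lay higher. In the table as a whole 9.44% of genes lay below and 10.7% above in this way.

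**Figure D5:**
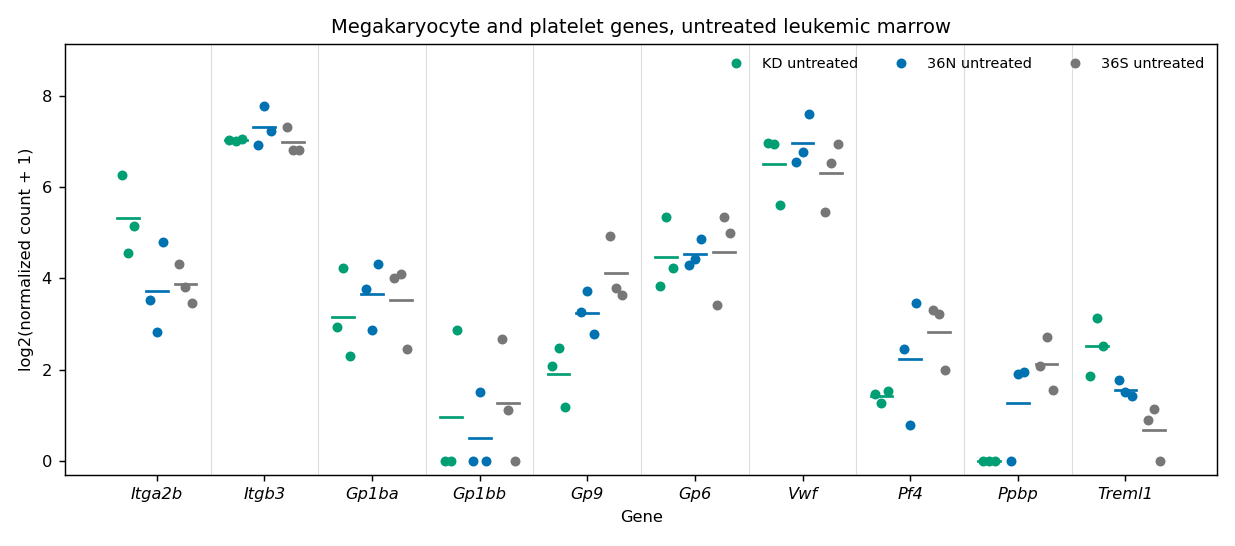
Log2(normalized count + 1) of each gene (x axis) in the untreated KD (left, green), 36N (middle, blue) and 36S (right, grey) libraries; each point is a library and each bar the mean of 3. KD libraries lie above 36S for Itga2b and Treml1 and below 36S for Gp9, Pf4 and Ppbp. Of these, Itga2b and Gp9 were tested and did not pass with the settings used, and the others were below the filter.

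The difference between 36N and 36S with TMZ was set against the same difference without TMZ in an interaction test. Of the 6 genes tested, 0 passed by limma (0 at an unadjusted p under 0.05), while 0.333% of 12324 genes did. The interaction of Itga2b was 0.18 on the log2 scale with a 95% interval of -1.10 to 1.46, and that of Itgb3 was -0.31 with an interval of -1.12 to 0.49. The intervals of Gp1ba, Gp9, Gp6 and Vwf also enclosed 0, and those of Gp1ba and Gp6 were wide, at -1.56 to 1.6 and -1.97 to 1.16.

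Other genes of the lineage did differ among untreated leukemias. In KD against 36S, where 6.61% of all genes tested rose and 4.86% fell, 3 of 10 transcription factors tested rose and none fell. Gfi1b averaged 57.8 ± 10.9 in KD and 8.25 ± 3.56 in 36S, a log2 fold change of 2.73 (limma adjusted p = 0.0035), and Gata2 averaged 1086 ± 124 in KD and 469 ± 65.6 in 36S, one of 1.21 (limma adjusted p = 0.0013; SD, n = 3 each). For Gfi1b only 1 of the 36S libraries reached 10, so it passed the filter through the KD libraries. Nfe2, a factor needed for platelet release, had a log2 fold change of 0.62, a call that was lost without 36S library 2 (limma adjusted p = 0.071). Jak2 and Lyn rose among 10 genes of thrombopoietin signalling, and Fcer1g among 13 other receptors, but these calls were lost under several alternatives, with adjusted p-values of up to 0.12, 0.11 and 0.13.

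Of 11 granule genes tested in KD against 36S, 3 rose and 1 fell. F5, clotting factor V, averaged 2696 ± 170 in KD and 1070 ± 45.2 in 36S (SD, n = 3 each), a log2 fold change of 1.33 (limma adjusted p = 0.00022), and its call held under all alternatives run. The calls of Lyst and F13a1 (higher) and Srgn (lower) were lost under several alternatives, with adjusted p-values of up to 0.10, 0.10 and 0.12. Of 18 signalling genes, 2 rose and 1 fell, with Ptgs1, the cyclooxygenase of platelets, at 181 ± 60.6 in KD and 1021 ± 42.2 in 36S. Of 11 cytoskeleton genes, 1 rose and 3 fell, but the calls of Tpm4 (higher) and Actn1 (lower) were lost when some libraries were left out, with adjusted p-values of up to 0.053 and 0.16, as was that of the signalling gene Bin2 (0.056). Tuba8 averaged 9.26 ± 6.79 in KD and 193 ± 44.1 in 36S, a log2 fold change of -4.54, and Mylk 72.1 ± 9.53 in KD and 404 ± 80.5 in 36S, one of -2.46 (limma adjusted p = 0.0015 and 0.00018).

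In 36N against 36S, 2.55% of all genes tested rose and 2.01% fell. Gfi1b was the 1 transcription factor of 10 tested that passed, with 36.3 ± 10.9 in 36N and 8.25 ± 3.56 in 36S (SD, n = 3 each; log2 fold change 2.05, limma adjusted p = 0.037). It reached 10 in only 1 of the 36S libraries, so it passed the filter through the 36N libraries. Its adjusted p reached 0.12 when a library was left out. No gene of thrombopoietin signalling or among the other receptors passed. Tuba8, Mylk and Ptgs1 were lower in 36N, with log2 fold changes of -2.65, -1.60 and -1.79 (limma adjusted p = 0.005, 0.005 and 0.0008), and Lyst, which shapes granules, was higher by 1.40. The KD and 36N comparisons share the 36S libraries. In KD against 36N, where 2.03% of all genes tested rose, Gata2 (log2 fold change 1.89) and F5 (0.76) were the genes of the 6 lists that passed, and the call of F5 was lost under several alternatives, with an adjusted p of up to 0.10.

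The genes whose pattern over the 9 untreated libraries was most like that of Itga2b, among 13552 genes, were Ilk (Pearson r = 0.95), Tgfb1 (0.94), Ost4 (0.94), Wbp2 (0.94) and Adcy2 (0.93). These correlations are descriptive. The points share their group and their scale, and the 2 libraries highest for Itga2b, KD libraries 7 and 9, also had the largest column totals (13.03 and 12.92 in units of 1e6, against 11.27 to 11.93 in the others).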

How the data were processed

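The deposited tables hold normalized counts per gene, a signal that the authors had scaled before deposit. The submitters' processing notes name Salmon, DESeq2 and the mm10 build, without versions or roles, and the labels describe poly(A) selection. Nothing further on the steps is stated in these sources. Depth is unknown, since whole reads were not recovered (27.9 to 62.1% of low values were whole within 0.1), and no counting intervals are given. The deposited columns were grouped by the labels, and the column names with WT were taken as 36S.

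Values were tested as log2(normalized count + 1), a scale that understates changes of low genes, with limma-trend (limma 3.58.1, R 4.3.3), two-sided, within a table. Genes with at least 10 in at least 3 libraries were tested, with Benjamini-Hochberg adjustment over all of them and a threshold of 0.05. The script was tested on simulated data. Coordinates and overlaps are from GENCODE M21 (mm10), and promoters from RefSeq.

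The members and lists were chosen with earlier results of these data known. All 10 members, Gfi1 and, per list and comparison, up to 4 genes past the threshold with the largest change and a group mean of at least 10 could be named, with the 5 genes most like Itga2b and up to 2 leading markers per cell type list. Lyl1, Sparc, Lyst, Fli1, Runx1, Cdh5, Cpa3, Ms4a2, Tubb1 and, with TMZ, Fcer1g and F5 were named after their values were seen. A few genes that the rule takes are not reported here. Titles of TMZ libraries repeat those of untreated libraries with TMZ added. Same-numbered libraries of 36N with and without TMZ had correlations of deviations of 0.019, 0.037 and 0.086, and no pairing by number was assumed. These values do not show whether such libraries came from the same leukemia, which is not stated. The interaction test treated all its libraries as independent. Alternatives were other pseudocounts (0.5 and 5), no filter or one of 50, equal totals, no trend, each library left out, and a replicate block.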

Additional observations from a re-analysis of the deposited data

How the results depend on the processing

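With TMZ in 36N cells, 9 genes were higher and 0 lower under every alternative, the replicate block included, and leaving out each library gave 9 and 9 as lowest and highest. In KD against 36S, the count of genes lower was 1 (Gp9) with no filter, 1 with equal totals and 1 without the trend, against 0 as deposited and tested. Leaving out a library gave 0 to 1 higher (Itga2b) and 0 to 1 lower (Gp9), and both calls came without KD library 8. The cause was not tested. In the other comparisons none of the 10 genes that were tested passed under any alternative run.

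Over all genes, the number called moved more. It was 599 for 36N against 36S, with 305 without the trend and 218 to 558 with a library left out. For KD against 36S it was 1503, with 639 to 2062 when a library was left out, and for KD against 36N 425, with 203 without the trend and 138 to 2018 with a library left out. The highest of these, 2018, came without KD library 8. For the interaction it was 41, with 27 at a filter of 50 and 10 to 34 with a library left out. For TMZ in 36N it was 10037, and 9985 with the replicate block. For TMZ-treated 36N against 36S it was 0, and 1 without 36S library 3. Values near 0 carry an unknown number of reads, which limits the untreated comparisons of Pf4, Ppbp, Gp1bb and Treml1.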
